A study of Mus musculus with 14 samples.

Results

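In the cortex of mice lacking Fmr1, ribosome footprints and mRNA were compared gene by gene, and the quantity described here is the interaction: the log2 change of footprints between knock-out (KO) and control mice minus the log2 change of RNA. Genes entered when every one of 14 libraries held at least 10 counts, which left 11514 of the 23412 genes in the table. A positive interaction means that a gene's footprints were higher relative to its RNA in KO mice, and a negative one that they were lower. Controls were Rpl22flox/flox;CamKCre+ mice and KO mice were Fmr1X-Y; Rpl22flox/flox;CamKCre+ mice, so that mice of both genotypes carried the floxed Rpl22 allele and the CamK Cre, and the labels give no age. The tissue is labelled as cortex of CAMKIIa-Ribotag mice, a design in which Cre tags the ribosomes of CamKII neurons, but the protocols in the labels describe no pull-down of tagged ribosomes, so that footprints and RNA of all cortical cells are taken to be present. The RNA-seq libraries came from mice 1, 3, 6 and 8 (control) and 2, 4, 5 and 7 (KO), and the footprint libraries from mice 1, 3 and 9 (control) and 2, 4 and 10 (KO). Values in individual libraries are given below in that order, as CPM, a gene's count scaled to a common library total, with TMM factors computed within each assay. Sums over cell-type or region markers are instead scaled to plain library totals, without TMM factors.

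In ribosome profiling a nuclease trims mRNA down to the short stretches covered by ribosomes, and these are sequenced, while RNA-seq of the same tissue gives the amount of mRNA that was there to be translated. When RNA and footprints of a gene change in opposite directions, the footprint change offsets the RNA change, which is called buffering. When footprints change and RNA does not, the number of ribosomes per mRNA differs, through either the rate of initiation or the time that ribosomes stay on the mRNA. Fmr1 encodes FMRP, an RNA-binding protein of neurons that associates with polyribosomes and with many long mRNAs of synaptic and chromatin proteins.

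The labels were checked against the deleted gene first. Fmr1 RNA was at 91.6, 89.6, 84.02 and 72.6 CPM in controls and 23.9, 22.8, 18.3 and 23.2 CPM in KO mice, and its footprints were at 111, 115 and 115 CPM in controls and 8.59, 5.84 and 8.0 CPM in KO mice. The genotypes did not overlap in either assay, and the interaction of Fmr1 was -2.01 ± 0.18 (log2 ± SE, edgeR adjusted p = 6.12e-07). Rpl22, the ribosomal protein gene that carries the floxed allele in both genotypes, had RNA at 89.1, 97.4, 105 and 99.1 CPM in controls and 76.8, 78.2, 89.2 and 83.6 CPM in KO mice. Its RNA change of -0.25 ± 0.07 was called (edgeR adjusted p = 0.0328) although the groups overlapped, and its interaction of 0.18 ± 0.13 was not (edgeR adjusted p = 0.473).

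Libraries held 8847547 to 11371851 counts in RNA and 4124065 to 6033030 in footprints. Libraries of one group differed to unequal degrees. The chi-square statistic per degree of freedom over genes, which is near 1 for pure sampling noise, was 1.18 to 1.32 among the RNA of KO mice 2, 4 and 7, and 5.64 to 6.02 between each of these and KO mouse 5. It was 1.99 between the RNA of control mice 1 and 3 and 4.03 to 11.8 between other control pairs, and footprint pairs of one genotype gave 1.20 to 1.46. The spread in the footprint tests, and among KO mice 2, 4 and 7, was thus close to counting noise, and whether it is the spread between animals was not tested. For many of the counts below, the count with these 3 libraries summed into 1 is also given.

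The interaction passed an adjusted p of 0.05 in 952 of 11514 genes, or 8.27% (edgeR quasi-likelihood test, Benjamini-Hochberg). It was higher in KO mice for 421 genes, 3.66% of those tested, and lower for 531, or 4.61%. The median over all tested genes was -0.0078, and the median size among called genes was 0.46 on the log2 scale, with 36 genes beyond 1. On plain library sizes, in place of TMM factors, 68.3% of called genes were higher, against 44.2% in the main fit, and the median over all genes was then 0.06. With the animal as a block in mice 1 to 4, the mice in both assays, 1760 genes were called, and the same 8 libraries without the block gave 1834. Left out singly, KO mouse 2 and KO mouse 4 moved the count most, to 433 and 469. The prefix of the library titles, which groups libraries of both genotypes, gave 796 called genes as a term in the fit, of which 103 were opposite and 529 footprint-only.

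Genes called in the interaction were sorted by the tests within each assay, in which 999 genes were called for RNA, or 8.68%, and 3076 for footprints, or 26.7%. Footprints changed without a called RNA change in 615 genes, 64.6% of those with a called interaction and 5.34% of all tested. RNA and footprints were both called in opposite directions in 106 genes, 11.1% of those with a called interaction and 0.921% of all tested. RNA changed without a called footprint change in 155 genes, 1.35% of all tested. In 21 genes both assays moved the same way by unequal amounts, and in 55 neither assay alone was called. The class of a gene depends on which of its tests passed, so that a missing RNA call does not show that RNA was unchanged.

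**Figure D1:**
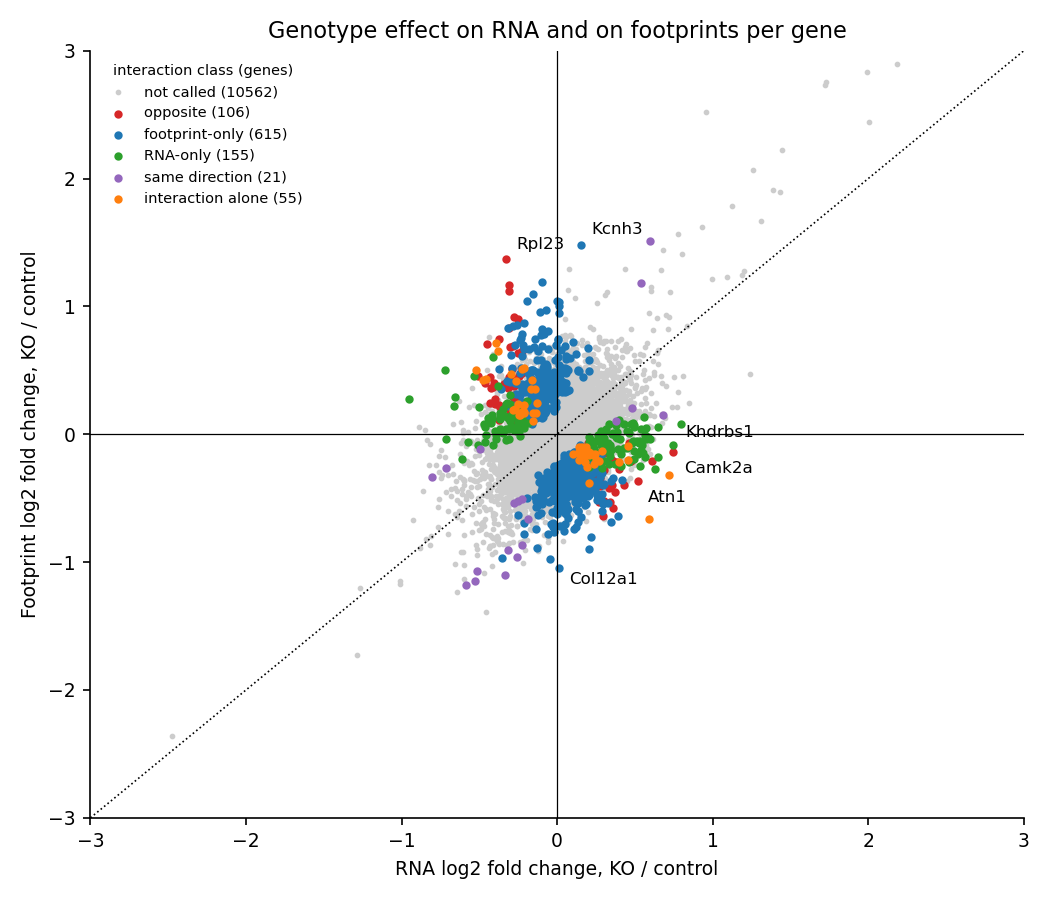
Each point is 1 of the tested genes, with the log2 fold change of RNA between KO and control mice on the x axis and that of footprints on the y axis, and the interaction is the vertical distance from the dotted diagonal. Colours mark the class of the called genes, with 106 opposite genes in red at the upper left and lower right and 615 footprint-only genes in blue along the vertical axis; 5 genes, among them Fmr1 and BC048546, lie beyond the plot limit of 3.

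Among the 106 opposite genes, 67 had lower RNA and higher footprints in KO mice, and 39 had higher RNA and lower footprints. The first had a median log2 change of -0.28 in RNA and 0.29 in footprints, and the second of 0.29 in RNA and -0.27 in footprints. The groups did not overlap in footprints for 99 of the 106 and in RNA for 102, against 38.2% and 16.2% of all tested genes. In all, 444 genes were called in both assays, and the rest of these moved the same way in both. In mice 1 to 4, with or without the animal as a block, 232 genes were opposite, and 70 of the 106 were among them. With the 3 contrasts taken from 1 fit over the 14 libraries 103 genes were opposite, of which 64 were among the 106. Omitting a control gave 64 opposite genes for mouse 1, 50 for mouse 6 and 161 for mouse 8, and omitting a KO mouse gave 35 for mouse 2, 34 for mouse 4 and 44 for mouse 7. When KO mice 2, 4 and 7 had their RNA summed into 1 library, 72 genes were called for RNA in place of 999, and 4 opposite genes were left: Atn1, Camk2a, Mrps18c and Tfip11. With the RNA of control mice 1 and 3 summed as well, 25 genes were called for RNA and Camk2a was the 1 opposite gene. With the RNA of mice 5 to 8 alone the opposite genes were 4, namely Bsn, Camk2a, Syn1 and Cox7a2l, the last of which was not called in the main fit.

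Cytosolic ribosomal proteins, the structural proteins of the translating ribosome, made up the largest block of opposite genes with lower RNA and higher footprints among the gene lists examined. The opposite genes were not all sorted into lists. Of 81 such genes listed, 37 were deep enough to test, and the interaction was higher in KO mice for 19 of them and lower for none. RNA was below control in 36 of the 37 and footprints were above control in 28, with median log2 changes of -0.22 in RNA, 0.19 in footprints and 0.38 in the interaction, against 0.0015, 0.0089 and -0.0078 over all tested genes. By class, 11 were opposite, 4 footprint-only and 4 RNA-only. When the RNA counts of KO mice 2, 4 and 7 were summed 14 genes were called higher, with the RNA of mice 5 to 8 alone 21, and 12 when control mouse 9 was omitted, in each case with none lower. Many ribosomal protein genes have near-identical processed copies in the genome, so that the share of reads assigned to each gene is uncertain, and in the 4 genes described next the lowest footprint library held 17 to 33 counts.

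Rpl23, a protein of the large subunit, had the largest positive interaction of the named opposite genes. Its RNA was at 173, 169, 171 and 179 CPM in controls and 131, 133, 162 and 127 CPM in KO mice, and its footprints were at 7.81, 7.33 and 6.58 CPM and 21.5, 18.4 and 16.2 CPM. RNA was lower and footprints were higher in every KO library than in any control library, and the interaction was 1.69 ± 0.18 (edgeR adjusted p = 5.78e-06). Rpl37, also of the large subunit, had RNA at 202, 205, 213 and 228 CPM in controls and 172, 176, 159.9 and 178 CPM in KO mice, with footprints at 4.497, 3.24 and 3.02 CPM and 6.68, 9.88 and 7.16 CPM. Here too neither assay overlapped between genotypes, and the interaction was 1.47 ± 0.22 (edgeR adjusted p = 0.000205).

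Rpl36al, a large-subunit protein gene, had RNA at 27.1, 29.4, 26.6 and 27.6 CPM in controls and 22.1, 21.98, 23.6 and 21.7 CPM in KO mice, and footprints at 5.44, 7.502 and 5.33 CPM and 13.6, 13.5 and 13.3 CPM, for an interaction of 1.43 ± 0.17 (edgeR adjusted p = 2.94e-05). Rpl35a, of the same subunit, had footprints at 4.73, 5.12 and 3.199 CPM in controls and 8.11, 6.51 and 9.89 CPM in KO mice, and RNA at 83.8, 84.2, 98.9 and 103 CPM and 77.4, 72.5, 83.6 and 71.9 CPM. Its groups did not overlap in either assay, although RNA of the highest KO mouse lay just under that of the lowest control. The interaction of Rpl35a was 1.19 ± 0.25 (edgeR adjusted p = 0.00502) and was not called in mice 1 to 4 alone, where it was 0.70 (edgeR adjusted p = 0.0725, or 0.0751 with the animal as a block). The strand setting of the counting is not given in the sources used here, so that reads of overlapping genes may not be told apart. For genes named anywhere in the text, RefSeq places these protein-coding pairs on overlapping loci: Tfip11 with Srrd, H2afy2 with Aifm2 and Gm2137, Macf1 with D830031N03Rik, Map1a with Ppip5k1 and Trp53bp1, Kif5a with Dctn2, Rpl35a with Iqcg, Ndufa1 with Rnf113a1, Ndufv2 with Ankrd12, Mrpl48 with Rab6a, Bcl9l with Cxcr5, Syn1 with Araf and Timp1, Shank1 with 1700008O03Rik, Kcnh3 with Mcrs1, Dst with Bend6, Srrm2 with Elob, Trip12 with Fbxo36, Eif5b with Rev1 and Bri3 with Baiap2l1. BC048546 was not matched.

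**Figure D2:**
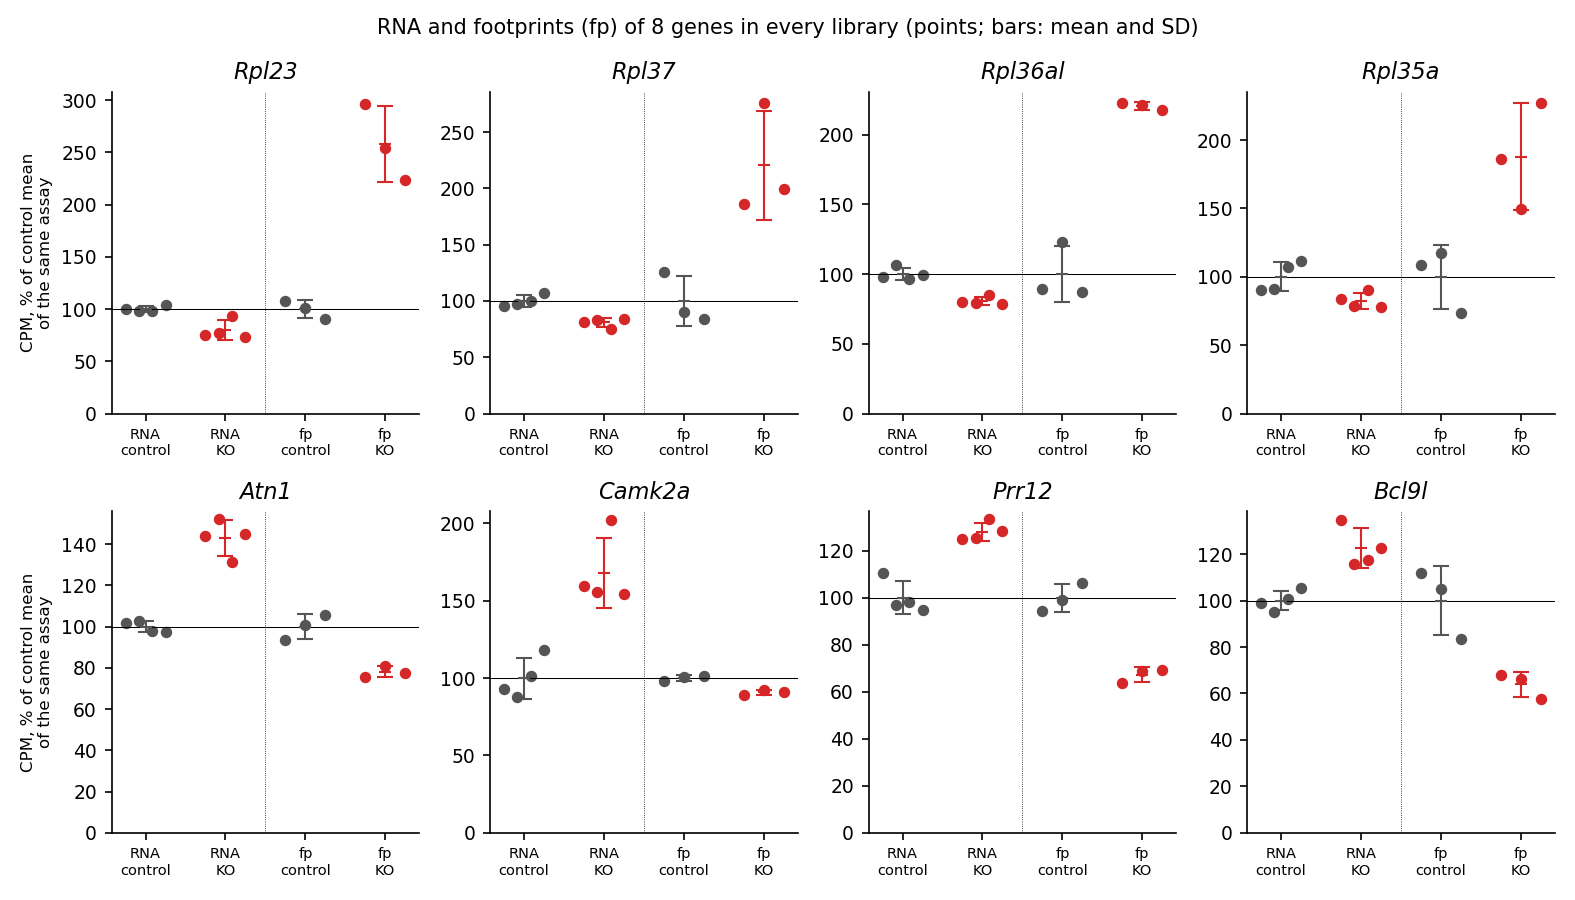
Points are single libraries and bars are the mean and SD, with CPM as a percentage of the control mean of the same assay on the y axis; the upper row holds 4 ribosomal protein genes and the lower row 4 genes with the opposite pattern. In the upper row KO points lie below control in RNA and above control in footprints, and in the lower row they lie above in RNA and below in footprints.

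Messenger RNAs of ribosomal proteins are known for beginning with a run of pyrimidines, the 5′ terminal oligopyrimidine tract, through which their translation is regulated as a group. The start sites of the members were therefore searched in RefSeq (GRCm38.p6) for a run of at least 6 bases made only of C and T that touches the annotated start or the base beside it, on the gene's strand. Of the 37 tested ribosomal protein genes 27 had a promoter in the table, and 10 of these, or 37%, held such a run, against 12.7% of 8628 tested genes with a promoter. Among the ribosomal protein genes called in the interaction 5 of 13 held one, or 38.5%, and among all opposite genes with higher footprints 10 of 55 did, or 18.2%. The windows below run from 15 bases before the annotated start to 15 from it, with the run in capitals, and are shown because these genes had a called interaction and represent both outcomes.
Rpl14 (chr9:120571502-120571531, plus strand): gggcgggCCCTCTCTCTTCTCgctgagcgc
Rps18 (chr17:33955651-33955680, minus strand): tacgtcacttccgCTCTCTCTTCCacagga
Rps15a (chr7:118116133-118116162, minus strand): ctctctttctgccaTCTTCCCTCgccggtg
Rpl23 (chr11:97782425-97782454, minus strand): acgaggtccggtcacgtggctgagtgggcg
Rpl37 (chr15:5116598-5116627, plus strand): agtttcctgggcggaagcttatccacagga
Rpl14, Rps18 and Rps15a were opposite genes with interactions of 1.14, 0.87 and 0.70. Rpl23 and Rpl37, which had the largest interactions of the list, held no such run at the annotated start. An annotated start can differ from the start used in cortex, and the search says nothing of runs elsewhere in the window.

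Genes of the mitochondrial respiratory chain shared the direction of the ribosomal proteins. Of 35 tested nuclear-encoded subunits of complex I, the NADH dehydrogenase, 16 had a called higher interaction and none a lower one, with median log2 changes of -0.13 in RNA, 0.14 in footprints and 0.27 in the interaction. Of these 16, 6 were opposite, 7 footprint-only and 3 RNA-only. Among 37 subunits of complexes II to V, 12 were higher and none lower, with 3 opposite and 8 footprint-only. When the RNA of KO mice 2, 4 and 7 was summed, 12 complex I genes and 7 genes of complexes II to V were called higher, and none lower. Complex I had 9 called genes without KO mouse 4. Complexes II to V had 7 when KO mouse 2 was omitted and 6 when either KO mouse 4 or control mouse 9 was, and with the animal as a block in mice 1 to 4 they had 14 higher and 4 lower, or 16 and 3 with the RNA of mice 5 to 8 alone. On plain library sizes they had 18 higher.

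Ndufa1, an accessory subunit of complex I, had RNA at 100.1, 88.7, 97.3 and 102 CPM in controls and 73.9, 74.7, 74.00 and 69.8 CPM in KO mice, and footprints at 114, 119.9 and 123 CPM and 154, 167 and 153 CPM. Neither assay overlapped between genotypes, and the interaction was 0.81 ± 0.09 (edgeR adjusted p = 5.35e-06). Ndufv2, a core subunit of the same complex, had an RNA change of -0.22 ± 0.06, a footprint change of 0.36 ± 0.04 and an interaction of 0.58 ± 0.08 (edgeR adjusted p = 8.75e-05). Cox7b, a subunit of cytochrome c oxidase, had footprints at 137, 138 and 133 CPM in controls and 191, 177 and 191 CPM in KO mice while RNA was at 229, 243, 251 and 272 CPM and 211, 208, 207 and 215 CPM, for an interaction of 0.69 ± 0.08 (edgeR adjusted p = 1.72e-05). Atp5j2, a subunit of the ATP synthase, had an interaction of 0.67 ± 0.12 (edgeR adjusted p = 0.00154). In Cox7b, as in Ndufa1 and Ndufv2, each KO library was below each control in RNA and above each control in footprints.

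The mitochondrial ribosome translates the mitochondrial genome. Of 74 tested genes for its proteins 12, or 16.2%, were called higher and none lower, or 24 higher on plain library sizes, with a median interaction of 0.26, a median footprint change of 0.17 and a median RNA change of -0.09. Called genes were 5 when the KO RNA was summed, and omitting a KO mouse gave 4 for mouse 2, 5 for mouse 4 and 6 for mouse 10. Mrpl48 had RNA at 47.9, 42.3, 52.2 and 56.5 CPM in controls and 40.2, 37.7, 40.8 and 42.6 CPM in KO mice, which overlapped, and footprints at 9.23, 10.9 and 9.42 CPM and 14.1, 15.9 and 17.7 CPM, which did not. Both changes passed their tests, and the interaction was 0.98 ± 0.18 (edgeR adjusted p = 0.0015). Mrps33 had an interaction of 0.96 ± 0.22 (edgeR adjusted p = 0.00904), which was not called without KO mouse 4, at 0.87 (edgeR adjusted p = 0.0611), or in mice 1 to 4 alone, at 0.71 (edgeR adjusted p = 0.0578, or 0.0634 with the animal as a block).

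Subunits of the proteasome, which degrades ubiquitin-tagged proteins, went both ways, with 27.5% called beside 8.27% of all tested genes. Of 40 tested, 9 were higher and 2 lower, with a median interaction of 0.19, and 2 were higher and 1 lower after the KO RNA was summed, or 14 and 1 on plain library sizes. With the animal as a block in mice 1 to 4, 15 were higher and 3 lower, and with the RNA of mice 5 to 8 alone 5 and 2. Psmb3, a subunit of the catalytic core, rose in footprints by 0.51 ± 0.14 and had an RNA change of -0.29 ± 0.06, giving an interaction of 0.80 ± 0.15 (edgeR adjusted p = 0.0023). Psmc2, an ATPase of the regulatory particle, was RNA-only and went the other way, with RNA at 107, 110.3, 92.8 and 105 CPM in controls and 133, 127, 149.8 and 133 CPM in KO mice and footprints that overlapped, for an interaction of -0.37 ± 0.09 (edgeR adjusted p = 0.0128), or -0.23 in mice 1 to 4 with the animal as a block.

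**Figure D3:**
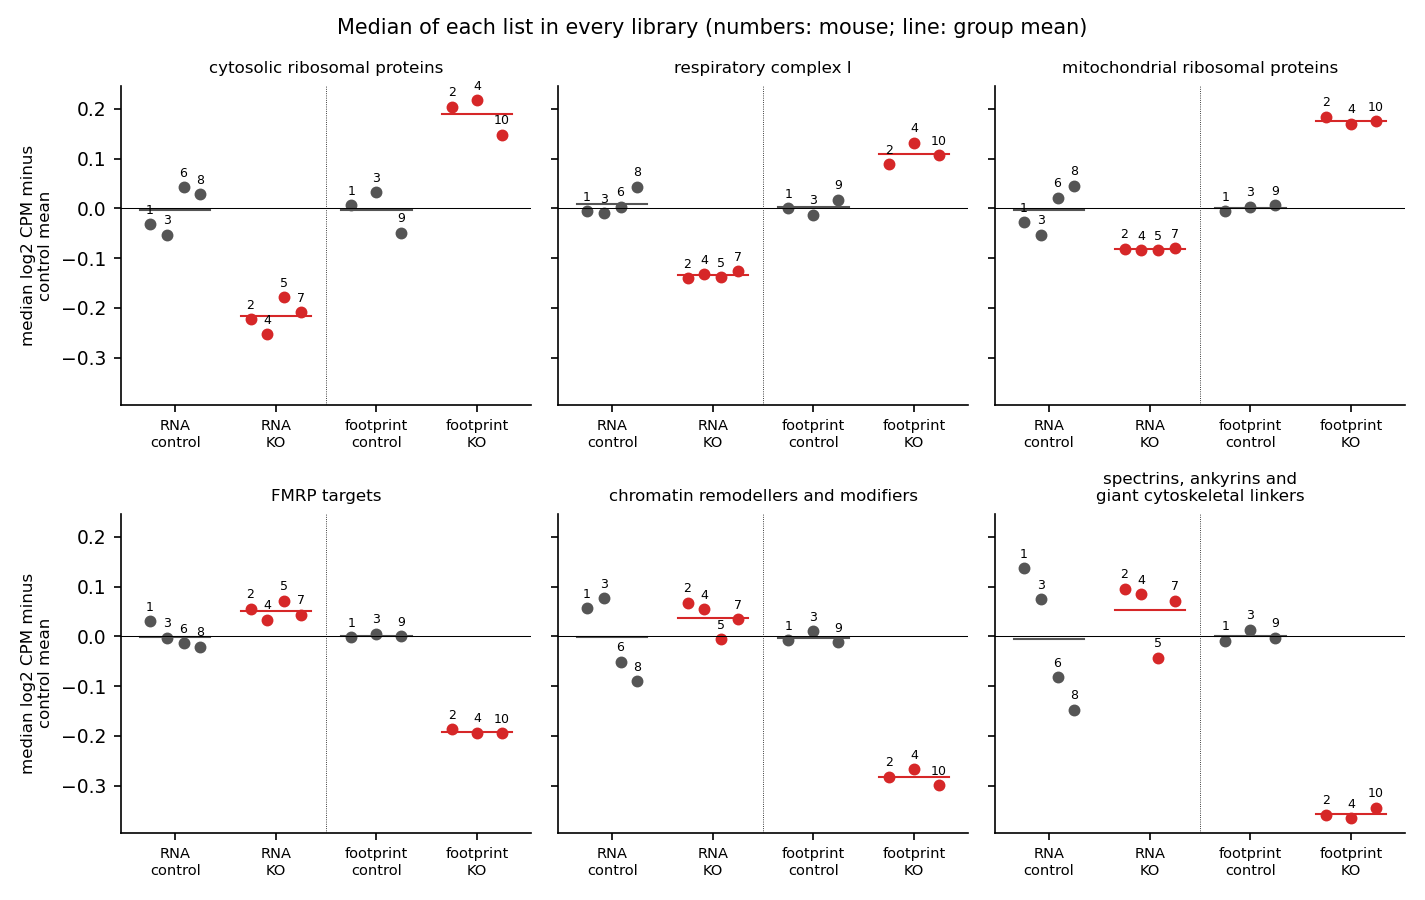
For 6 gene lists, each point is 1 library, labelled by its mouse number, and gives the median over the list of log2 CPM minus the control mean of the same assay; lines are group means. In the 3 lists of the upper row KO mice lie below control in RNA and above control in footprints, and in the 3 lists of the lower row KO mice lie below control in footprints in all 3 libraries while RNA of control mice spans or overlaps that of KO mice, apart from the FMRP targets, whose KO medians lie above every control's.

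Among the 39 opposite genes with higher RNA and lower footprints, Camk2a, the alpha subunit of the calcium- and calmodulin-dependent kinase of excitatory synapses, was opposite in the main fit and in each of the 3 alternatives on RNA libraries above. Its RNA was at 440.4, 418, 482 and 561 CPM in controls and 759, 741, 961 and 732 CPM in KO mice, and its footprints were at 3107, 3185 and 3210.2 CPM and 2823, 2916 and 2879 CPM. RNA was higher in every KO library, most of all in KO mouse 5, and footprints were lower in every KO library by a small amount with a narrow spread. The log2 change was 0.75 ± 0.10 in RNA and -0.14 ± 0.02 in footprints, and the interaction was -0.90 ± 0.12 (edgeR adjusted p = 6.79e-05), or -0.53 with the RNA exon columns.

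Atn1, which encodes the transcriptional corepressor atrophin 1, had RNA at 50.1, 50.5, 48.3 and 47.99 CPM in controls and 70.96, 74.9, 64.6 and 71.2 CPM in KO mice, and footprints at 121, 130.3 and 137 CPM and 97.8, 105 and 101 CPM. No library overlapped between genotypes in either assay, and the interaction was -0.89 ± 0.09 (edgeR adjusted p = 4.08e-06). Prr12, a proline-rich nuclear protein, and Bcl9l, a coactivator of beta-catenin, had interactions of -0.94 ± 0.09 (edgeR adjusted p = 3.84e-06) and -0.94 ± 0.14 (edgeR adjusted p = 0.000186). Their footprints fell from 112, 118 and 127 CPM to 75.9, 81.97 and 82.7 CPM for Prr12, and from 40.5, 38.02 and 30.2 CPM to 24.6, 24.03 and 20.8 CPM for Bcl9l.

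Among 64 genes of presynaptic release 9 were lower in the interaction and 5 higher. Among 56 postsynaptic scaffolds and receptors 14 were lower and 1 higher. The shares called were 21.9% and 26.8%, beside 8.27% of all tested genes. With the animal as a block in mice 1 to 4 the presynaptic counts were 16 lower and 6 higher, and the postsynaptic ones 19 lower and 2 higher. When the KO RNA was summed they were 9 lower and 2 higher, and 12 lower and 1 higher, and with the RNA of mice 5 to 8 alone 16 and 5, and 13 and 4. Bsn, the active zone scaffold bassoon, had RNA at 625, 596, 569 and 543 CPM in controls and 754, 729, 773 and 729 CPM in KO mice, and footprints at 448, 465 and 477 CPM and 405, 408 and 401 CPM, with an interaction of -0.56 ± 0.07 (edgeR adjusted p = 4.65e-05). Syn1, a synaptic vesicle phosphoprotein, had RNA at 357, 378, 322 and 263 CPM in controls and 434, 426, 528 and 426 CPM in KO mice, with a footprint change of -0.07 ± 0.02 and an interaction of -0.54 ± 0.12 (edgeR adjusted p = 0.00908), which was -0.32 in mice 1 to 4 with the animal as a block. Shank1, a scaffold of the postsynaptic density, rose in RNA by 0.36 ± 0.06 and changed in footprints by -0.40 ± 0.06, for an interaction of -0.76 ± 0.09 (edgeR adjusted p = 2.27e-05). Both assays separated the genotypes in all 3 genes.

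Other synaptic genes went the opposite way. Cltb, a light chain of clathrin, had footprints at 89.7, 96.7 and 101 CPM in controls and 151, 168 and 163 CPM in KO mice, while RNA overlapped, and an interaction of 0.97 ± 0.11 (edgeR adjusted p = 5.93e-06). Napb, which helps to take apart used SNARE complexes, had an interaction of 0.38 ± 0.07 (edgeR adjusted p = 0.00217).

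In the 615 footprint-only genes the interaction was higher in KO mice for 253 and lower for 362. The first had a median footprint change of 0.39 and a median RNA change of -0.10, and the second medians of -0.35 and 0.08. RNA pointed against footprints in 80.7% of the class, against 43.6% of all tested genes, but an RNA change of that sign enlarges the interaction and so helps a gene to be called. Footprint groups did not overlap for 602 of the 615 and RNA groups for 114, beside 38.2% and 16.2% of all tested genes. The class held 464 genes when the RNA of KO mice 2, 4 and 7 was summed, and 512 when that of control mice 1 and 3 was summed too. It held 992 with the RNA of mice 5 to 8 alone, 329 without KO mouse 2 and 355 without KO mouse 4.

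BC048546 had the largest interaction of all tested genes. Its footprints were at 22993, 25622 and 23607 CPM in controls and 17.7, 15.7 and 14.3 CPM in KO mice, while its RNA was at 6.36, 5.49, 5.86 and 6.35 CPM and 6.08, 6.11, 5.05 and 7.16 CPM. RNA overlapped between the genotypes, and the interaction was -10.60 ± 0.17 (edgeR adjusted p = 7.53e-22). What the control footprint reads of this gene are was not tested. Iffo2, an intermediate filament family gene, had footprints at 736, 935 and 891 CPM in controls and 1584, 2171 and 1769 CPM in KO mice, against RNA of 19.3, 20.7, 17.8 and 16.5 CPM and 15.1, 17.99, 17.5 and 16.2 CPM, for an interaction of 1.25 ± 0.16 (edgeR adjusted p = 4.39e-05). Footprints of Iffo2 were far above its RNA in both genotypes, and what these reads are was not tested either.

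Kcnh3, a voltage-gated potassium channel of the forebrain, had footprints at 56.1, 104 and 92.4 CPM in controls and 229, 251 and 245 CPM in KO mice, with RNA at 198, 193, 217 and 229.8 CPM and 233, 227, 237 and 235 CPM. Footprints did not overlap and RNA did, and the interaction was 1.34 ± 0.16 (edgeR adjusted p = 1.56e-05). Kcnh3 was the 1 gene of the FMRP target list with a called higher interaction. Vdac3, a channel of the outer mitochondrial membrane, had footprints at 14.7, 15.5 and 14.9 CPM in controls and 35.1, 30.1 and 28.4 CPM in KO mice, and an interaction of 1.23 ± 0.13 (edgeR adjusted p = 5.78e-06). C330018D20Rik had an interaction of 1.14 ± 0.24 (edgeR adjusted p = 0.00494).

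Lower footprints with little difference in RNA were seen in Col12a1, a fibril-associated collagen, with footprints at 31.5, 33.2 and 27.2 CPM in controls and 14.8, 13.2 and 16.4 CPM in KO mice against RNA at 33.6, 33.02, 29.2 and 25.9 CPM and 33.3, 32.7, 25.6 and 30.8 CPM. Its interaction was -1.06 ± 0.18 (edgeR adjusted p = 0.000645), and its RNA overlapped between the genotypes. Fbrs and Znhit6, a factor of small nucleolar ribonucleoprotein assembly, had interactions of -1.04 ± 0.18 (edgeR adjusted p = 0.000994) and -1.03 ± 0.21 (edgeR adjusted p = 0.00365). In Fbrs the RNA of every KO library was above control although its change of 0.35 ± 0.11 was not called (edgeR adjusted p = 0.0571), so that the line between footprint-only and opposite was close there.

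The spectrins, ankyrins and giant cytoskeletal linkers, very large proteins that tie membranes, actin and microtubules together, had lower footprints in KO mice. Of 24 tested genes 13 had a lower interaction, or 54.2%, and none a higher one, and all 13 were footprint-only. Footprints were below control in 23 of the 24 genes and called lower in 21, beside 14.2% of all tested genes called lower in footprints, with a median of -0.34, while the median RNA change was 0.05. List medians per library were -0.36, -0.37 and -0.34 in footprints of KO mice, against -0.0090, 0.01 and -0.0024 in controls. In RNA they were 0.14, 0.08, -0.08 and -0.15 in controls and 0.10, 0.09, -0.04 and 0.07 in KO mice, so that RNA overlapped. With the KO RNA summed 7 genes were called lower, and with the RNA of mice 5 to 8 alone 17. Omitting a KO mouse gave 5 for mouse 2 and 6 for mouse 4, and omitting a control gave 8 for mouse 6 and 7 for mouse 9.

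Dst, the cytoskeletal linker dystonin, had footprints at 499, 529 and 512 CPM in controls and 319, 301 and 296 CPM in KO mice, and RNA at 1417, 1399.8, 1121 and 965 CPM and 1293, 1319.8, 1175 and 1264 CPM. Footprints did not overlap and RNA did, and the interaction was -0.80 ± 0.13 (edgeR adjusted p = 0.00046). Others of the list with a called lower interaction were Plec, Macf1, Map1a, Nav2, Sptbn4, Nav1, Map1b, Sptan1, Nav3, Ank2 and Utrn.

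Chromatin remodellers and modifiers, which slide, mark or read nucleosomes, moved in the same direction. Of 54 tested genes 26 had a lower interaction, or 48.1%, and none a higher one, of which 22 were footprint-only, 2 opposite and 2 RNA-only. Median log2 changes were -0.28 in footprints, 0.03 in RNA and -0.32 in the interaction. With the KO RNA summed 21 genes were called lower, and with the RNA of mice 5 to 8 alone 31, in both with none higher. It was 16 without KO mouse 2, and with the animal as a block in mice 1 to 4 it was 26, with 1 gene higher. Chd7, an ATP-dependent remodeller, had an interaction of -0.81 ± 0.23 (edgeR adjusted p = 0.0298) on low footprint counts of 13.3, 10.6 and 11.02 CPM in controls and 8.83, 4.72 and 8.42 CPM in KO mice. The Chd7 call was lost with the KO RNA summed (edgeR adjusted p = 0.0597) and without control mouse 1 (adjusted p = 0.0774), KO mouse 2 (0.0532), KO mouse 4 (0.169) or control mouse 9 (0.0547).

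The FMRP targets are 291 tested genes from a published set of mRNAs bound by FMRP in mouse brain, without Fmr1 itself. The interaction was lower in KO mice for 112 of them and higher for 1, which together are 38.8% of the list. Footprints were below control in 245, called lower in 184, beside 14.2% of all tested genes, and called higher in 14. RNA was above control in 193, called higher in 29, beside 4.19% of all tested genes, and called lower in 9. The median log2 changes were -0.19 in footprints, 0.05 in RNA and -0.22 in the interaction. Of the called genes 89 were footprint-only and 14 opposite. Medians per library were -0.19, -0.19 and -0.19 in footprints of KO mice, and in RNA 0.06, 0.03, 0.07 and 0.04 in KO mice against 0.03, -0.0026, -0.01 and -0.02 in controls. The list shares genes with the synaptic, channel and chromatin lists, so that the lists are not separate observations. With the KO RNA summed 93 genes were called lower, and with the RNA of mice 5 to 8 alone 139.

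**Figure D4:**
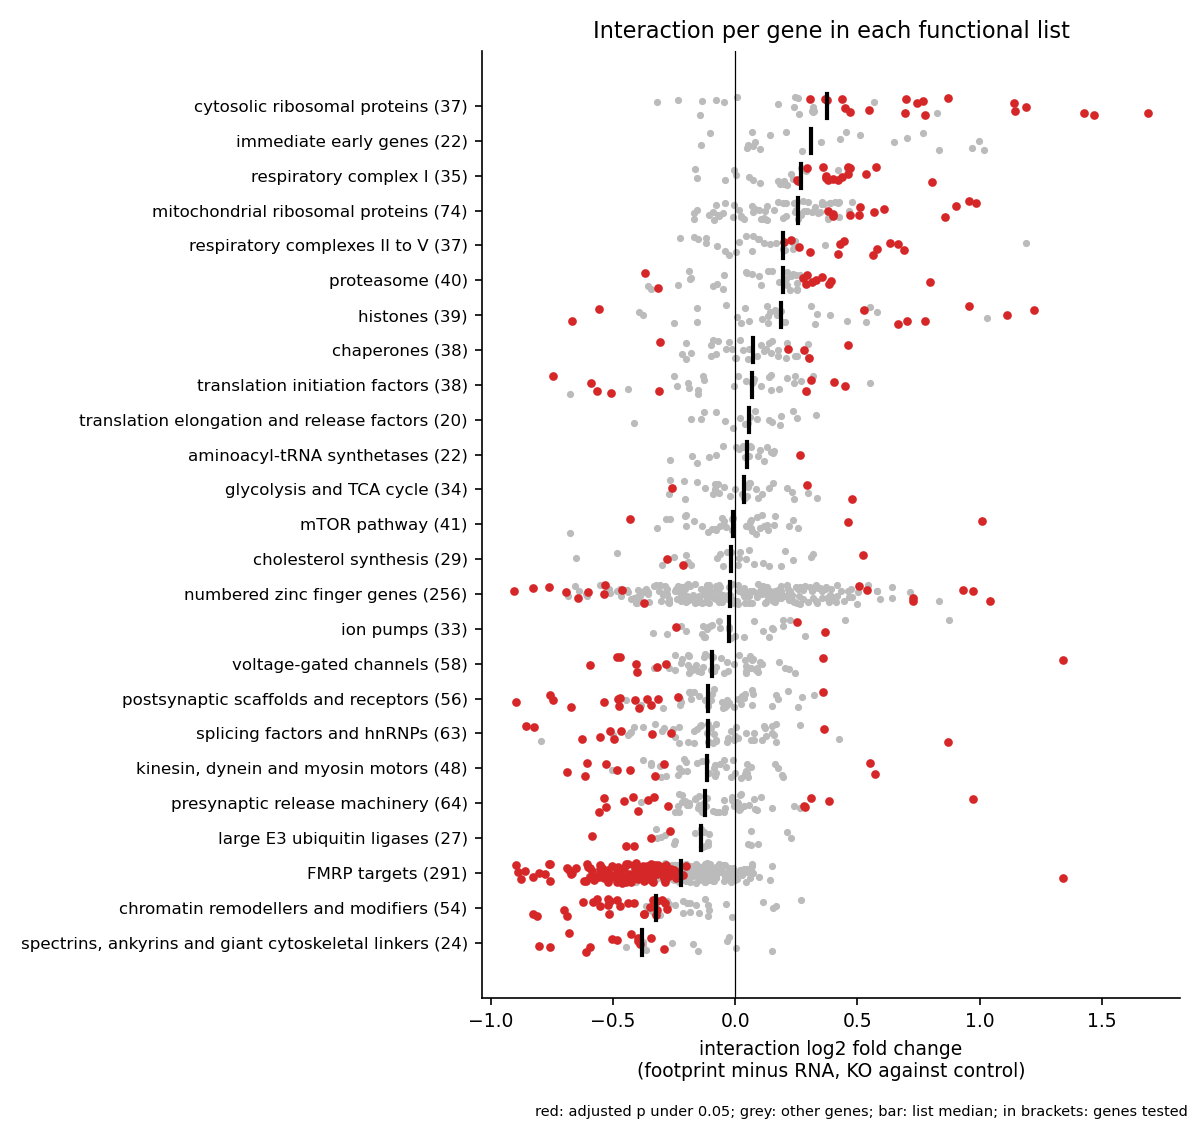
Each row is a gene list with the number of tested genes in brackets, each point a gene's interaction (log2, x axis), red where the adjusted p was under 0.05, and each bar the list median. Medians run from -0.38 for the giant linkers and -0.32 for the chromatin genes to 0.38 for the cytosolic ribosomal proteins.

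Among further lists, those of ubiquitin ligases and splicing factors had more lower than higher calls. Of 27 large E3 ubiquitin ligases 5 were lower and none higher, all footprint-only, and 9 and 2 with the animal as a block in mice 1 to 4. Huwe1 had footprints at 459.7, 450.0 and 461 CPM in controls and 339, 343 and 328 CPM in KO mice with RNA that overlapped, for an interaction of -0.45 ± 0.07 (edgeR adjusted p = 0.000171). Trip12 had an interaction of -0.59 ± 0.14 (edgeR adjusted p = 0.00971), which was -0.26 in mice 1 to 4 with the animal as a block. With the KO RNA summed 3 ligases were called lower, and with the RNA of mice 5 to 8 alone 11. Among 63 splicing factors and hnRNPs 9 were lower and 2 higher, and 14 and 4 with that block, or 21 and 2 with the RNA of mice 5 to 8 alone. Srrm2, a large serine- and arginine-rich matrix protein of the spliceosome, had footprints at 417, 408 and 412 CPM in controls and 251, 239 and 249 CPM in KO mice, and an interaction of -0.86 ± 0.07 (edgeR adjusted p = 6.88e-08). Rbfox3, the neuronal splicing factor known as NeuN, was opposite, with RNA at 55.4, 47.8, 62.4 and 80.5 CPM in controls and 93.99, 95.8, 84.6 and 101 CPM in KO mice and a footprint change of -0.21 ± 0.04, for an interaction of -0.82 ± 0.15 (edgeR adjusted p = 0.00143), or -0.45 with the RNA exon columns.

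Of 48 kinesin, dynein and myosin motor genes 8 were lower and 2 higher, a share of 20.8% beside 8.27% of all tested genes. The counts were 9 and 6 with the animal as a block in mice 1 to 4. They were 12 and 2 with the RNA of mice 5 to 8 alone. The 8 lower genes were Kif1a, Kif1b, Kif5a, Kif5c, Kif17, Myo10, Dctn1 and Dynll2. Both higher genes were dynein light chains: Dynlt3 with an interaction of 0.57 ± 0.10 (edgeR adjusted p = 0.001) and Dynlrb1 with 0.55 ± 0.10 (edgeR adjusted p = 0.00149), or 0.36 in mice 1 to 4 with the animal as a block. The Dynlt3 value was 0.33 with the RNA columns counted over exons and was not called there (edgeR adjusted p = 0.0998). Dctn1, the large subunit of dynactin, had footprints at 363, 367 and 379.9 CPM in controls and 258, 268 and 292 CPM in KO mice, overlapping RNA, and an interaction of -0.69 ± 0.13 (edgeR adjusted p = 0.0021). Dynll2, a light chain, was lower through RNA alone, with RNA at 43.7, 47.9, 47.7 and 50.5 CPM in controls and 70.9, 67.6, 76.6 and 69.6 CPM in KO mice and footprints that overlapped, for an interaction of -0.62 ± 0.08 (edgeR adjusted p = 4.65e-05), or -0.38 with the exon columns.

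Lists of the translation machinery are given beside the 8.27% of all tested genes that were called. No test compared these lists, and few calls in lists of 20 or 22 genes are not read as a difference. Of 38 initiation factors 4 were higher and 5 lower, with no opposite gene. The counts were 1 higher and 5 lower when the KO RNA was summed, 1 and 7 with the RNA of mice 5 to 8 alone, and 7 and 4 on plain library sizes. Eif3a, the largest subunit of the eIF3 complex, had footprints at 456, 447 and 468 CPM in controls and 331, 336 and 333 CPM in KO mice and an interaction of -0.59 ± 0.09 (edgeR adjusted p = 0.000205), while Eif3k, a small subunit of the same complex, had footprints at 112, 124 and 132 CPM and 147, 156 and 153 CPM and an interaction of 0.45 ± 0.09 (edgeR adjusted p = 0.00224). Eif5b, the GTPase that joins the subunits, had an interaction of -0.74 ± 0.19 (edgeR adjusted p = 0.0148), which was -0.40 in mice 1 to 4 with the animal as a block and -1.13 with the RNA of mice 5 to 8 alone. None of 20 elongation and release factors was called by edgeR or DESeq2 and 2 were by limma voom, with 2 at an unadjusted p under 0.05 and a median interaction of 0.06, and 1 of 22 aminoacyl-tRNA synthetases was called higher by edgeR. With the KO RNA summed no synthetase was called, and with the RNA of mice 5 to 8 alone 2 synthetases and 2 elongation or release factors were called lower and none higher.

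**Figure D5:**
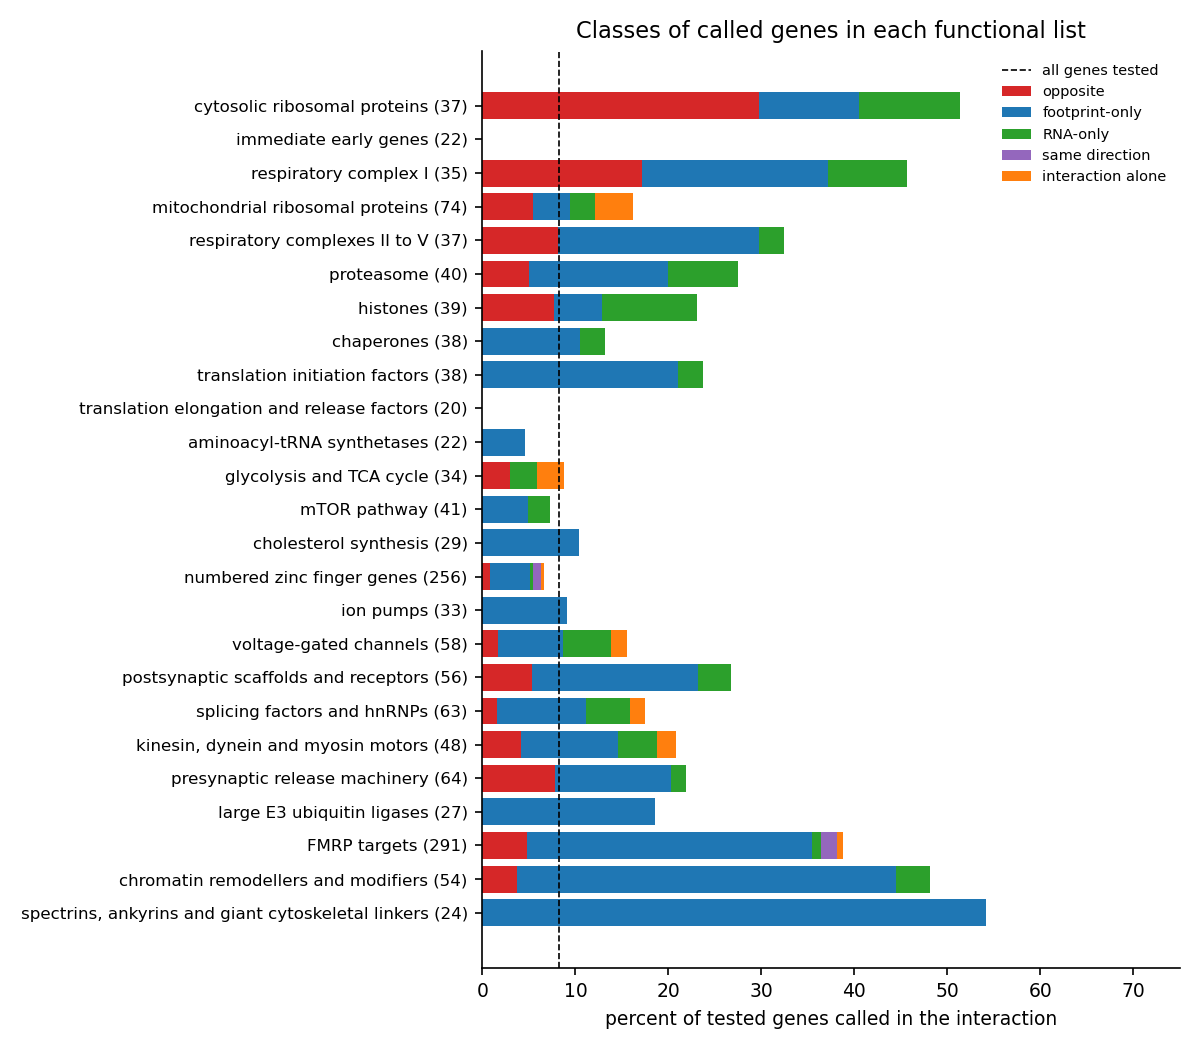
Bars give the percentage of each list's tested genes that were called in the interaction, split by class, and the dashed line marks the 8.27% of all tested genes. The opposite class in red is widest in the cytosolic ribosomal proteins (11 of 37 genes) and complex I (6 of 35), and the giant linkers and chromatin genes are almost wholly blue, the footprint-only class.

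In metabolic, signalling and zinc finger lists the share called was near the 8.27% of all tested genes. The interaction was called in 3 of 34 genes of glycolysis and the TCA cycle (8.82%) and 3 of 29 of cholesterol synthesis (10.3%). It was called in 3 of 41 genes of the mTOR pathway (7.32%), 3 of 33 ion pumps (9.09%) and 17 of 256 numbered zinc finger genes (6.64%). On plain library sizes the glycolysis and ion pump lists had 6 called genes each, all higher, and with the KO RNA summed the zinc finger genes had 4 higher and 6 lower and the mTOR pathway 1 lower. With the RNA of mice 5 to 8 alone the ion pumps had 4 higher and 5 lower, and the cholesterol genes 3 higher and 2 lower. The ion pumps had 0 higher and 2 lower with the KO RNA summed, against 2 and 1 in the main fit. Pkm, the last enzyme of glycolysis, was opposite, with RNA at 1334, 1238, 1137 and 1131 CPM in controls and 915, 880.3, 1009.9 and 925 CPM in KO mice and footprints at 467, 453 and 458 CPM and 472, 494 and 520.2 CPM. Its interaction was 0.48 ± 0.08 (edgeR adjusted p = 0.00103). Of 58 voltage-gated channels 7 were lower and 2 higher (15.5%), and 4 were lower and 1 higher when the KO RNA was summed. Of 38 chaperones 1 was lower and 4 higher (13.2%), against 1 and 0 when the KO RNA was summed. The counts were 6 and 2 with the RNA of mice 5 to 8 alone and 0 and 8 on plain library sizes. Histones, of which 39 of 82 were tested, were higher in 7 and lower in 2 (23.1%). The counts were 5 and 1 with the KO RNA summed and 4 and 2 with the RNA of mice 5 to 8 alone. Hist1h4h, a histone H4 gene, was opposite, with an RNA change of -0.38 ± 0.09, a footprint change of 0.75 ± 0.11 and an interaction of 1.11 ± 0.17 (edgeR adjusted p = 0.000259), but H4 genes are near-identical in sequence and the assignment of reads among them is uncertain.

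RNA-only genes are by definition those whose footprint change was not called. In place of 999, 72 genes were called for RNA with the KO RNA summed and 38 with the RNA of mice 5 to 8 alone. The RNA-only class can be no larger than that in these runs. Of the 155, the interaction was higher in 69, with medians of -0.33 in RNA and 0.10 in footprints, and lower in 86, with medians of 0.38 and -0.06. Khdrbs1, the RNA-binding protein Sam68, had RNA at 60.1, 55.5, 64.2 and 75.9 CPM in controls and 104, 110.0, 114 and 101 CPM in KO mice, and footprints at 198, 203 and 211 CPM and 177, 204 and 196 CPM. RNA was higher in every KO library and footprints overlapped, and the interaction was -0.84 ± 0.11 (edgeR adjusted p = 7.14e-05). Slc32a1, the vesicular GABA transporter, had RNA at 53.03, 54.5, 61.9 and 58.1 CPM in controls and 78.1, 84.6, 90.2 and 83.4 CPM in KO mice with a footprint change of -0.01 ± 0.04, for an interaction of -0.58 ± 0.08 (edgeR adjusted p = 0.000171), or -0.38 with the RNA exon columns.

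Aqp4, the water channel of astrocyte endfeet, had RNA at 125, 122, 119 and 108 CPM in controls and 85.5, 92.3, 77.9 and 89.3 CPM in KO mice and footprints that overlapped, for an interaction of 0.45 ± 0.09 (edgeR adjusted p = 0.00376), or 0.27 with the RNA exon columns. Kcnj10, the astrocyte potassium channel Kir4.1, rose in RNA by 0.65 ± 0.08 with footprints that overlapped, for an interaction of -0.59 ± 0.10 (edgeR adjusted p = 0.000733). Its call was lost with the RNA exon columns, at -0.22 (edgeR adjusted p = 0.0531). Among RNA-only genes of at least 5 CPM in both assays, Ccdc12, Lyrm2, Lamtor3 and Snrpd2 had the largest positive interactions, at 0.94 ± 0.23, 0.98 ± 0.24, 1.01 ± 0.26 and 0.87 ± 0.23. Each of these 4 lost its call without 1 mouse. For Ccdc12 this was control mouse 1 (edgeR adjusted p = 0.0506) or KO mouse 2 (0.0931), and for Lyrm2 it was KO mouse 10 (0.0598). For Lamtor3 it was control mouse 1 (edgeR adjusted p = 0.0603), KO mouse 4 (0.118) or KO mouse 10 (0.112), and for Snrpd2 it was KO mouse 2 (0.132), KO mouse 4 (0.098) or control mouse 9 (0.0553). With the KO RNA summed, Lamtor3 (edgeR adjusted p = 0.0526), Snrpd2 (0.0614) and Bri3 (0.0684) were not called, and neither was Lamtor3 with the exon columns (0.0599) or Bri3 with the RNA of mice 5 to 8 alone (0.132). With the animal as a block in mice 1 to 4, Lyrm2 (edgeR adjusted p = 0.0645) and Lamtor3 (0.0855) were not called either. At the other end were Zfp513 at -0.90 ± 0.20, Proser1 at -0.78 ± 0.17 and Bri3 at -0.84 ± 0.24, and Bri3 was at -1.43 in mice 1 to 4 with the animal as a block and lost its call without control mouse 1 (edgeR adjusted p = 0.112), KO mouse 2 (0.158), control mouse 3 (0.0975), KO mouse 4 (0.0833) or KO mouse 7 (0.0522).

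Further lists differed between the genotypes in both assays in the same direction. Immediate early genes, which neurons switch on within minutes of activity, had a median RNA change of 1.19 and a median footprint change of 1.47 over 22 tested genes, and the interaction, with a median of 0.31, was called in none by edgeR or DESeq2 and in 1 by limma voom. It was above 0 in 20 of the 22 genes, with an unadjusted p under 0.05 for 7. This value moved with the RNA libraries used: the median RNA change was 1.58 in mice 1 to 4 and 0.80 in mice 5 to 8, beside the same footprint change of 1.47. With the RNA of mice 5 to 8 alone 7 genes were called higher, while in the mice with both assays the median footprint level relative to RNA, as a log2 deviation from the control mean, was 0.02 and 0.07 in KO mice 2 and 4 and 0.03 and -0.03 in control mice 1 and 3. Per library their median in RNA was -0.18, -0.15, -0.18 and 0.41 in controls and 1.47, 1.45, 0.39 and 1.38 in KO mice, so that control mouse 8 lay just above KO mouse 5 and the genotypes overlapped. Of 8 markers of the hypothalamus 4 could be tested, and these had a median of -0.95 in RNA and -1.02 in footprints, with none called in the interaction by edgeR, DESeq2 or limma voom and 0 at an unadjusted p under 0.05. Summed over all 8, these markers were at 42.5 to 78.7 CPM in control RNA and 21.8 to 27.7 CPM in KO RNA, and at 113 to 122 CPM and 49.5 to 54.6 CPM in footprints. The part of either difference in the interactions above was not tested.

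Markers of cortical cell types were present in both assays. The interaction was called in 2 of 12 excitatory, 2 of 10 inhibitory, 2 of 10 astrocyte and 1 of 10 oligodendrocyte markers, beside 8.27% of all tested genes. With the RNA of mice 5 to 8 alone it was called in 6 inhibitory, 1 astrocyte, 3 oligodendrocyte and 1 striatal marker. Summed markers of excitatory neurons were at 2865 to 3148 CPM in control RNA and 3578 to 3717 CPM in KO RNA, and at 5740 to 5884 CPM and 5762 to 6026 CPM in footprints. Those of oligodendrocytes were at 5321 to 5860 CPM in control RNA and 4631 to 5133 CPM in KO RNA, and at 8878 to 9061 CPM and 9124 to 9204 CPM in footprints. In both lists the genotypes separated in RNA, with excitatory markers higher and oligodendrocyte markers lower in KO mice. In footprints the oligodendrocyte sum, on plain library totals, was higher in KO mice. Footprint sums were also higher in every KO library for inhibitory markers (1800.4 to 1859.9 CPM in controls and 2034 to 2057 CPM in KO mice), astrocytes (7937 to 8091 and 8166 to 8236 CPM), endothelium (453 to 474 and 504 to 529 CPM) and striatum (1195 to 1239 and 1394 to 1449 CPM). On plain totals the median footprint change over all genes was 0.07, against 0.0089 with TMM factors. With TMM factors the astrocyte list medians in footprints were -0.02, -0.04 and -0.06 in KO mice, below every control. The oligodendrocyte and endothelium medians overlapped between the genotypes. The higher sums of these lists are therefore not read as higher footprints. Inhibitory and striatal medians stayed above every control. In such bulk tissue fewer cells of a type cannot be told apart from less RNA per cell, and the part of the marker differences in the interaction was not tested. Camk2a counts among the excitatory markers. Of 3 red blood cell markers 2 were at 0 in every library, and markers of choroid plexus, summed, ranged from 10.3 to 282 CPM in control RNA and from 7.12 to 117 CPM in KO RNA.

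Libraries not shared between the assays allowed a look at the same measures in samples that had no part in a call. They did have a part in the choice of genes, which required counts in all 14 libraries. When the genes were called from mice 1 to 4 alone, over the same 11514 genes, 234 were opposite. In the footprints of KO mouse 10 against control mouse 9, 220 of these 234 (94%) had the same sign as in mice 1 to 4, against 70% of all tested genes. In the RNA of mice 5 to 8, 197 (84.2%) kept their sign against 60.5% of all genes, and 160 (68.4%) against 54.6% without KO mouse 7, whose RNA was nearly that of KO mice 2 and 4. RNA and footprints were opposite in these other mice for 185 of the 234 (79.1%), against 47.9% of all genes, and for 148 (63.2%), against 47.7%, without KO mouse 7. Of 673 footprint-only genes 601 (89.3%) kept the sign of the interaction, against 63.7% of all genes, and 582 (86.5%) against 60.9% without KO mouse 7. Of 660 RNA-only genes 486 (73.6%) kept it, and 426 (64.5%) without KO mouse 7. These shares rest on 1 footprint library per genotype and carry no error of their own. Called genes were selected for large changes and all tested genes were not, so that their shares are not compared like for like.

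At the count threshold, 118 genes had a lowest library count of exactly 10 and were in, and 137 had 9 and were out. Atp6v0c, a proton pump subunit just inside, had an interaction of 0.88 that was not called (edgeR adjusted p = 0.491).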

How the data were processed

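The authors deposited a table of read counts per gene with 6 footprint and 8 RNA libraries, used as deposited. Per the labels' protocols, footprints came from lysates digested with RNase I and monosomes taken from a sucrose gradient, and RNA libraries were depleted of ribosomal RNA. Per the submitters' processing notes, Bowtie2, STAR 2.5, featureCounts and Subread 1.4.6 were used; the strand setting and the annotation are not given in the sources used here. The RNA columns used have no suffix, and a second set, marked as exon, was an alternative.

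Genes with at least 10 counts in each of the 14 libraries were fitted with edgeR 4.0.16 (R 4.3.3; limma 3.58.1 and DESeq2 1.42.0 as alternatives): TMM factors, 4 group means, a quasi-likelihood F test of the interaction, Benjamini-Hochberg adjustment over all genes, called under 0.05. RNA and footprints were also tested separately over the same genes. The common biological coefficient of variation was 0.0740 in RNA and 0.0211 in footprints. Statistics were tested on simulated data. Functional lists, members and tests were chosen with earlier results of these data known. Named genes are Fmr1, Rpl22, the 4 largest rises and falls of the interaction in each of 3 classes among genes of at least 5 CPM in both assays, and up to 2 called genes each way per list; other names were chosen after their values were seen. Some genes that this rule names are not reported here. Promoter windows are from RefSeq (GRCm38.p6). The look at mice outside a call was also added after seeing the data. Mice 1 to 4 gave both assays; deviations of the same animal in RNA and footprints correlated between -0.0040 and 0.05 over 8377 genes of at least 50 counts. Planned checks of protein length were not run.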

Additional observations from a re-analysis of the deposited data

Results flagged for a closer look

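In groups of 4 RNA libraries, 9 of 102 groups examined held 1 mouse far from the other 3 by a gap test that chance passes in about 1 of 20 groups. KO mouse 5 was the distant one in all 6 KO groups. Its median for the spectrin and giant linker list was -0.043, against 0.07 to 0.10 in the other KO mice, and its median for immediate early genes was 0.39, against 1.38 to 1.47. In RNA it had 961 CPM for Camk2a, against 732 to 759, and 13.04 CPM for Znhit6, against 8.07 to 8.51. It had 39.0 CPM for Snrpd2, against 32.6 to 33.6, and 10.45 CPM for Proser1, against 13.7 to 14.3. Among controls, mouse 8 had a median of 0.41 for immediate early genes, against -0.18 to -0.15, and 70.3 CPM for Vdac3, against 78.4 to 79.8. Control mouse 3 had 10.97 CPM for C330018D20Rik, against 8.68 to 9.03.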

How the results depend on the processing

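Against 952 genes called in the interaction, 106 opposite and 615 footprint-only, the fit with the animal as a replicate block in mice 1 to 4 gave 1760 called and 232 opposite, and the same libraries without the block gave 1834 and 232. limma voom gave 1944, 255 and 946. The RNA of mice 5 to 8 alone gave 4 opposite and 992 footprint-only genes. When KO mice 2, 4 and 7 had their RNA summed, 549 genes were called and 4 were opposite, and with that of control mice 1 and 3 summed too 594 and 1. Leaving out each mouse in turn gave 433 to 1309 called, 34 to 161 opposite and 329 to 772 footprint-only genes. DESeq2, other scalings, other filters, the exon columns and the title prefix as a block gave 796 to 1085 called genes. The called genes kept the sign of the interaction in each alternative run, except 1 of 951 with the exon columns. In mice 1 to 4 the interactions of Rpl35a, Mrps33, Lyrm2, Lamtor3, Cux2, H2afy2, Atp6v0e2 and Cacna1g were not called with the block or without it, so that the block itself changed no call of these. Depth limits the genes with few footprint counts, and the checks of protein length were not run. The cause of these differences was not tested.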
